A study of Mus musculus with 192 samples.

Results

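Cyclin B1 and CDK1, the mitotic kinases Plk1, Aurka, Aurkb, Bub1, Bub1b and Ttk, and the kinesin motors Kif11 and Kif20b were followed through single erythroid progenitors of the mouse fetal liver. These 10 genes were chosen by name from the 49466 genes of the count table, and all 10 passed the filter on low levels. Cells came from C57/Bl6J embryos at day 14.5, were depleted of lineage-marked cells, stained for CD117, CD71 and CD24, and sorted singly into 2 plates of 96 wells. Wells of the first plate are labelled burst-forming unit-erythroid (BFU-E), a progenitor committed early to red cells, and those of the second colony-forming unit-erythroid (CFU-E), the stage that follows it. The labels name no treatment and no mutation, and they do not describe the gates that separated the plates. Each plate was its own sequencing lane, and the effects of plate, of lane and of cell type cannot be told apart. No label names an animal, litter or pool, so each cell type was 1 sample, and no difference between cell types has a replicate check or a p-value.

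Entry into mitosis depends on CDK1 bound to cyclin B1. Polo-like kinase 1 and Aurora A act on centrosomes and on CDK1 activation, and Aurora B is the kinase of the chromosomal passenger complex. BUB1, BUBR1 (the product of Bub1b) and MPS1 (the product of Ttk) belong to the spindle assembly checkpoint, which holds anaphase until chromosomes are attached. KIF11 slides microtubules apart to build a bipolar spindle, and KIF20B acts in late mitosis and cytokinesis. Transcripts of such genes accumulate in G2 and M phase, in part through promoter elements named CHR and CCAAT that are read by the MuvB-containing and NF-Y complexes. Fetal liver erythroid progenitors divide rapidly while they differentiate, but whether the sorted cells were cycling was not measured here.

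The promoter windows of the members with the highest and the lowest CFU-E to BFU-E ratios are shown because they let a reader compare the sequence elements of genes that went opposite ways between the plates. A window of 300 bases around the start of the gene (250 before, 50 after) was found in RefSeq (GRCm38.p6) for 9 of the 10 genes. Capitals mark TTTGAA (the core letters of CHR) and CCAAT, each on either strand, so that TTCAAA and ATTGG are their reverse strands; sequences run 5′ to 3′ along the gene. The Plk1 window is chr7:122159185-122159484 (plus strand), the Ccnb1 window chr13:100786437-100786736 (minus), the Ttk window chr9:83834439-83834738 (plus) and the Kif20b window chr19:34922108-34922407 (plus).
Plk1: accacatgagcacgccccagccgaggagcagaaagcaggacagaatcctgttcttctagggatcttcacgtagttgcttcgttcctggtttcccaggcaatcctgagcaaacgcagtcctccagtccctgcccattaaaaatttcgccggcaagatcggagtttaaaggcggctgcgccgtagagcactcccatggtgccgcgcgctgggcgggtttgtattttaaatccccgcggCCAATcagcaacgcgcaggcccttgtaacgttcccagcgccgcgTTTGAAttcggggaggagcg
Ccnb1: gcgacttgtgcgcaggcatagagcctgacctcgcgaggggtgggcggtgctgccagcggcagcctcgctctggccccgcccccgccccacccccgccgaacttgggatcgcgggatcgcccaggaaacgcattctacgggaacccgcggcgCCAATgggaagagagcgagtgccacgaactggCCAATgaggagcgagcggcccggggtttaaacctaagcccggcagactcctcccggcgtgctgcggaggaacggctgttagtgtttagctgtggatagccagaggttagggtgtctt
Ttk: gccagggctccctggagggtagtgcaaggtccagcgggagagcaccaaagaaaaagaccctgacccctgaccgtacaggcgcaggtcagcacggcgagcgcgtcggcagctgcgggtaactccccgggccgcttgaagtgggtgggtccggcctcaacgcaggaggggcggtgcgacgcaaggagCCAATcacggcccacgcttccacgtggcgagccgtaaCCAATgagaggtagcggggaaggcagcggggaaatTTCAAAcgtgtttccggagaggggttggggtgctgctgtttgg
Kif20b: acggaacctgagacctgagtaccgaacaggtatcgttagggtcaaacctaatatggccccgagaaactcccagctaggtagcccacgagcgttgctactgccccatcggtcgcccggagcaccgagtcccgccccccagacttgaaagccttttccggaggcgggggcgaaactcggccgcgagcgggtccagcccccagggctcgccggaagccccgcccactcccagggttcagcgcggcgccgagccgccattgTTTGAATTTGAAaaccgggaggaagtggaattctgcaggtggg
Plk1 and Ttk each held a CCAAT just upstream of the start (first bases at -14 and -28) and 1 TTTGAA just inside the transcribed part (at 31 and 8, the latter on the reverse strand). Kif20b held a tandem pair of TTTGAA at 8 and 14 and no CCAAT, and Ccnb1 held a pair of CCAAT boxes at -99 and -67 and no TTTGAA. Among the 9 windows, TTTGAA was present in 7 (Bub1b, Aurka, Plk1, Ttk, Cdk1, Kif20b and Kif11), against 17.9% of 32851 RefSeq windows of the same length. CCAAT was present in 8 (every window but that of Kif20b), against 37.4% of all windows. The E2F-like letters GCGGGAA were in 0 of the 9 and in 4.60% of all. No TTTGAA overlapped a CCAAT in the printed windows. TTTGAA was found in genes on both sides of the comparison (Plk1 on the higher side, Ttk and Kif20b on the lower), as was CCAAT (Plk1 and Ccnb1, and Ttk); a match of letters shows neither a bound site nor a cause.

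Cells needed 100000 counts and 2000 genes with a count to be used, a filter that 92 of 96 BFU-E wells and 89 of 95 CFU-E wells passed, with 114288 to 3864040 and 131891 to 2992101 counts per kept cell. Each kept cell was thinned to 100000 counts, and each level is the sum over cells scaled to 1000000 counts (CPM) with exact 95% intervals. The intervals cover counting error only, and since PCR copies of a molecule were not marked, reads are not separate molecules. In a single thinned cell, 1 count is worth 10 CPM. The cells of the BFU-E plate fell into 2 clusters (mean silhouette 0.327) that were formed without the 10 genes. One, of 55 cells, was erythroid-like (led by Ermap, Gata1 and Car1, among others), and the other, of 37 cells, was granulocyte-monocyte-like (led by Cd33, Ncf1 and Csf1r, among others) although the plate is labelled BFU-E. Erythroid markers summed to 3153 CPM in the erythroid-like cells, 517 in the granulocyte-monocyte-like cells and 15475 in CFU-E cells; Icam4 alone among the 20 was at 0 in all 3. Granulocyte-monocyte markers summed to 300.0, 5443 and 1.24 CPM, stem and multipotent markers to 366, 2073 and 9.89, and megakaryocyte markers to 433, 152 and 24.8. Their most abundant genes on the BFU-E plate were Mpo, Cd34 and Itga2b, at 1744, 608 and 145 CPM. The other lists were low: mast and basophil markers summed to 52.4, 52.2 and 1.35 CPM, lymphoid markers to 19.3, 156 and 106, macrophage markers to 1.82, 11.9 and 0.225, hepatocyte markers to 208, 175 and 161, and endothelial and stromal markers to 24.4, 137 and 4.72. Their most abundant genes on the BFU-E plate were Cpa3 (50.3 CPM), Cd79b (37.9), Adgre1 (3.48), Afp (88.8) and Pecam1 (66.96). Of the CFU-E cells, 3 had counts for at least 3 lymphoid markers. Because the BFU-E plate held 2 kinds of cell, the ratios between the plates, the shares and the correlations are also given for its erythroid-like cells alone.

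Ccnb1 and Plk1 were higher in CFU-E cells and Ttk and Kif20b were lower, with the other 6 genes between them. By a threshold of 2-fold on log2(CPM + 1), Plk1 alone of the 10 genes passed as higher in CFU-E cells, and 2 passed as lower (Ttk and Kif20b). With unthinned counts, in which deeper cells weigh more, Plk1 was at a log2 ratio of 0.75 and no gene passed as higher. Of 9440 genes with a mean of at least 5 CPM over the plates, 6.1% were at least 2-fold higher and 32.5% at least 2-fold lower, so 2 lower of 10 is no larger a share than among all genes. The median gene of the 9440 had a log2 ratio of -0.57, and the median of the 10 genes was -0.41. Against the erythroid-like BFU-E cells alone, 0 of the 10 were at least 2-fold higher and the same 2 at least 2-fold lower, beside 5.84% and 29.9% of 9181 measured genes, and the median was -0.31. With TMM factors, which set the bulk of genes to no change and raise every log2 ratio by 0.574, 2 of the 10 were at least 2-fold higher (Ccnb1 and Plk1) and 0 lower, beside 14.1% and 18.7% of all genes. The median of the 10 then turned to 0.16. Directions below are those of the unscaled CPM; where a ratio over all cells or within the mitotic-high range turns with this scaling, that is said beside it, and the score steps were not rescaled. The plot of levels shows the 10 genes by group.

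**Figure D1:**
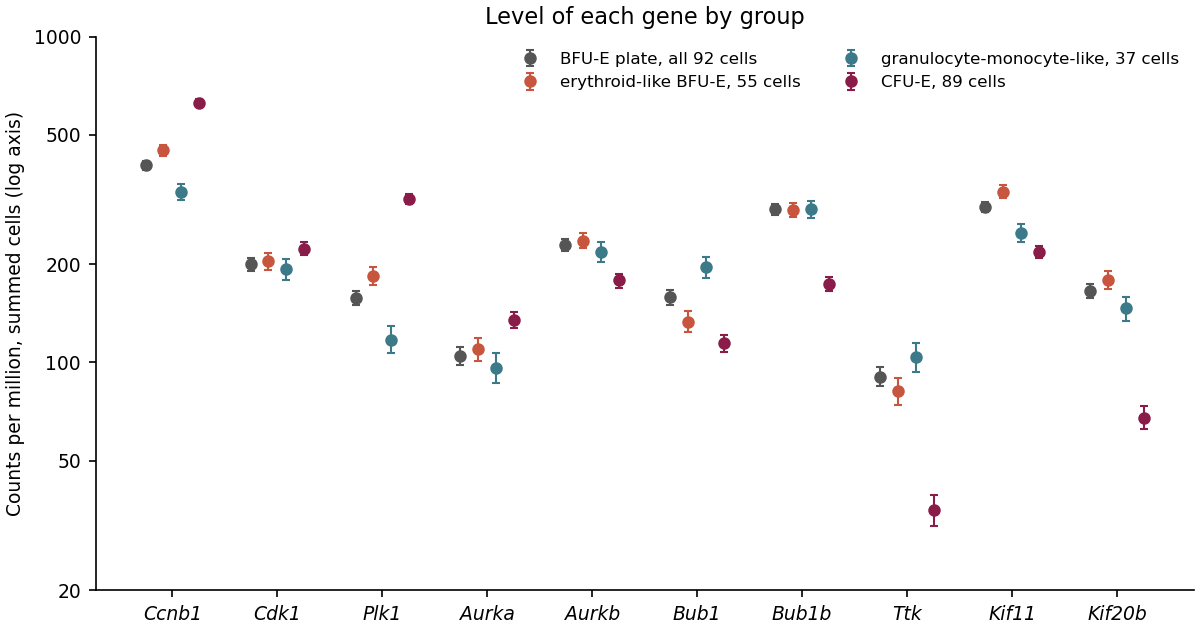
Level of each of the 10 genes in CPM (log axis) over the summed kept cells of 4 groups; bars are exact 95% intervals of counting error, and the BFU-E plate is the sum of the erythroid-like and granulocyte-monocyte-like cells. CFU-E cells are the highest of the groups for Ccnb1, Cdk1, Plk1 and Aurka. They are the lowest for Aurkb, Bub1, Bub1b, Ttk, Kif11 and Kif20b.

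Cyclin B1 had the highest level per length of the 10 genes on the BFU-E plate, and in CFU-E cells it was level with Plk1. Ccnb1 (ENSMUSG00000041431, chr13:100778650-100786570, minus strand, GRCm38) ranged over the BFU-E plate from 0 to 1960 CPM per cell with a median of 225, and over CFU-E cells from 40 to 1760 with a median of 510. The 2 ranges overlapped almost wholly at the top, but 80 of 92 BFU-E-plate cells had a count, against 89 of 89 CFU-E cells. The sums were 402.5 CPM (389.6 to 416) on the BFU-E plate, 448 in its erythroid-like cells and 628 (611 to 644) over the CFU-E cells, that is 1.56-fold (1.496 to 1.63) the BFU-E plate, or 1.40-fold the erythroid-like cells. Per kilobase of exon this was 95.4 and 149 CPM, beside 71.7 and 144 for Plk1. Its pseudogene Ccnb1-ps had 1.196 and 3.26 CPM, and how reads that fit both were counted is not given in the sources used here.

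Cdk1, the kinase that cyclin B1 activates, differed little between the plates. Cdk1 (ENSMUSG00000019942, chr10:69335146-69352938, minus) had a median of 160 CPM per cell on the BFU-E plate and 180 in CFU-E cells, and reached 800 in both. The sums were 200.1 (191 to 209) and 224 (214 to 234) CPM, a ratio of 1.12 (1.05 to 1.19), or 1.09 against the 205 CPM of the erythroid-like cells. In the unthinned sums the direction of Cdk1 turned (log2 ratio -0.07 against 0.16), so its order between the plates depends on how cells are weighed.

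Plk1 had the highest ratio of the 10, and it lay on the 2-fold threshold. Plk1 (ENSMUSG00000030867, chr7:122159439-122169873, plus) ranged from 0 to 620 CPM per cell on the BFU-E plate, with a median of 80, and from 0 to 980 in CFU-E cells, with a median of 260. The lower quartile of BFU-E-plate cells was 10 CPM, while that of CFU-E cells was 160. The sums were 158 and 317 CPM, a ratio of 2.01 (1.89 to 2.15), which put Plk1 at percentile 93.95 of the measured genes. Against the erythroid-like cells, at 185 CPM, the ratio was 1.72 (1.60 to 1.85), and the granulocyte-monocyte-like cells were at 118 CPM. Another gene, Gm44985, overlaps its exons, and the libraries do not mark strand, so reads of the overlap cannot be assigned by strand. How reads that fit both were counted is not given in the sources used here.

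The Auroras went opposite ways in CPM. Aurka (ENSMUSG00000027496, chr2:172356190-172370535, minus) was at 104 CPM on the BFU-E plate and 135 in CFU-E cells (ratio 1.29, 1.19 to 1.41, or 1.23 against the erythroid-like cells), with cell medians of 55 and 120 and highest cells of 730 and 490. Of all 10 genes it was seen in the fewest BFU-E-plate cells, 57 of 92, yet in 85 of 89 CFU-E cells. Aurkb (ENSMUSG00000020897, chr11:69045647-69051664, plus) was at 229 and 179 CPM, 1.28-fold lower in CFU-E cells (ratio 0.779, 0.730 to 0.832, or 0.755 against the erythroid-like cells), a direction that turned with TMM factors (log2 ratio 0.21). Its cell medians were 160 and 170 CPM, while the upper quartiles were 405 and 270 and the highest cells 950 and 770, so the sums differed through the upper part of the range.

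All 3 checkpoint kinases were lower in CFU-E cells, by increasing steps from Bub1 to Bub1b to Ttk. The median measured gene was lower as well, at a log2 ratio of -0.57. Among the measured genes Bub1, Bub1b and Ttk were at percentiles 54.6, 41.9 and 22.5. Bub1 (ENSMUSG00000027379, chr2:127801122-127831865, minus) was at 159 and 114 CPM, 1.39-fold lower (1.17-fold against the erythroid-like cells), which is near the median of all genes and turned with TMM factors (log2 ratio 0.10). On the BFU-E plate it was the member with the lowest level in erythroid-like relative to granulocyte-monocyte-like cells, at 133 and 196 CPM (ratio 0.681, 0.614 to 0.756). Bub1b (ENSMUSG00000040084, chr2:118598211-118641591, plus) was at 295 CPM on the BFU-E plate and at 294 and 296 CPM in its 2 kinds of cell, and at 174 CPM in CFU-E cells, 1.69-fold lower than the plate and than its erythroid-like cells. Its cell median went from 295 to 150 CPM, although every CFU-E cell had a count for it.

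Ttk was the lowest of the 10 and had the lowest ratio. Ttk (ENSMUSG00000038379, chr9:83834689-83872389, plus) ranged from 0 to 480 CPM per cell on the BFU-E plate, with a median of 65, and from 0 to 160 in CFU-E cells, with a median of 30. No CFU-E cell reached the upper part of the BFU-E range, in which the highest 10 cells held 41.3% of all Ttk counts of the plate. The sums were 90.5 (84.5 to 96.9) and 35.2 (31.4 to 39.3) CPM, 2.57-fold lower in CFU-E cells, and 2.32-fold lower than the 81.6 CPM of the erythroid-like cells. Per kilobase of exon Ttk was at 18.4 and 7.15 CPM.

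The kinesins were both lower in CFU-E cells, Kif20b more so. Kif11 (ENSMUSG00000012443, chr19:37376403-37421859, plus) had 0 to 1020 CPM per cell on the BFU-E plate (median 200) and 0 to 670 in CFU-E cells (median 180). The sums were 300.1 and 218 CPM, 1.37-fold lower, a direction that turned with TMM factors (log2 ratio 0.11), and 1.53-fold lower than the erythroid-like cells. Kif20b (ENSMUSG00000024795, chr19:34922361-34975745, plus) had 0 to 970 CPM per cell on the BFU-E plate (median 130) and 0 to 230 in CFU-E cells (median 60). Its highest CFU-E cell was at the upper quartile of the BFU-E plate, 230 CPM. The sums were 166 and 67.6 CPM, 2.45-fold lower, and 2.64-fold lower than the 179 CPM of the erythroid-like cells. Kif11 and Kif20b have long transcripts (7.46 and 6.96 kb of exon). Over 9437 measured genes the log2 ratio fell slightly with exon length (Spearman correlation -0.12, across genes, which are not replicates), and the median of the length quintile that holds both kinesins was -0.59 against -0.48 in the shortest quintile, which holds Plk1 and Aurka. The part of length in the ratios was not tested further.

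Cells with no count were rarer in CFU-E cells for all 10 genes, including the 6 whose CPM was lower there. The share of cells with a count ran from 61.96% (Aurka) to 92.4% (Bub1b) on the BFU-E plate and from 76.4% (Ttk) to 100% (Ccnb1 and Bub1b) in CFU-E cells; without thinning it ran from 71.7% to 97.8% and from 88.8% to 100%. For the genes whose CPM went the other way, no order of expression is read from these shares. All 10 genes were counted together in 35 of 92 BFU-E-plate cells (38.04%, 28.1 to 48.8%) and in 55 of 89 CFU-E cells (61.8%, 50.9 to 71.9%). Of the BFU-E-plate cells, 19 had counts for fewer than 6 of the 10 and the emptiest for 2, while the emptiest CFU-E cell had 7. The summed CPM of the 10 genes ran from 60 to 6440 per BFU-E-plate cell (median 1555) and from 600 to 5310 per CFU-E cell (median 1990). The spread was thus wider in the BFU-E plate at both ends, with a coefficient of variation of 0.768 against 0.510. It was also 0.728 within the erythroid-like cells alone. Both the lowest and the highest CFU-E sums belonged to cells with lymphoid markers; without the 3 such cells CFU-E sums ran from 630 to 4360, with the median still at 1990.

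To place each cell, a mitotic score was computed as the mean log2(CPM + 1) of 27 G2 and M phase genes that include none of the 10, and cells at or above Otsu's threshold over both plates (4.64) were called mitotic-high. This is a range of a score and not a cell type, and transcripts of this kind are also present in G2. Of BFU-E-plate cells 48 of 92 were mitotic-high (52.2%, exact interval 41.5 to 62.7%), of its erythroid-like cells 33 of 55 (60%, 45.9 to 72.98%), of its granulocyte-monocyte-like cells 15 of 37 (40.5%, 24.8 to 57.9%), and of CFU-E cells 83 of 89 (93.3%, 85.9 to 97.5%). With Otsu's threshold set in each plate on its own, at 4.64 and 5.81, the shares were 52.2% and 51.7%. Such a threshold falls within the plate's own scores, so these shares do not compare the plates at a like score. Within 0.25 of the threshold lay 6 BFU-E-plate and 7 CFU-E cells. Without thinning, and with its own threshold, the score gave 53.3% and 95.5%. The order of the shares depended on the threshold: at 1 log2 unit higher it was 39.1% and 60.7%, and at 2 units higher 19.6% (12.03 to 29.1%) and 14.6% (8.01 to 23.7%). Scores ran from 0.72 to 8.06 on the BFU-E plate (median 4.98, SD 1.97) and from 3.35 to 7.69 in CFU-E cells (median 5.92, SD 0.79), and without the 3 cells with lymphoid markers from 3.91 to 7.34 (SD 0.73). The quartiles of CFU-E cells were 5.37 and 6.50 and those of the BFU-E plate 3.33 and 6.42, so CFU-E cells lay in the upper part of the wider range of the BFU-E plate but short of its highest scores, as the distribution of scores shows. A score for S phase genes went the other way within the BFU-E plate, with a median of 6.55 in mitotic-high and 7.58 in mitotic-low cells, and was 7.78 in mitotic-high CFU-E cells.

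**Figure D2:**
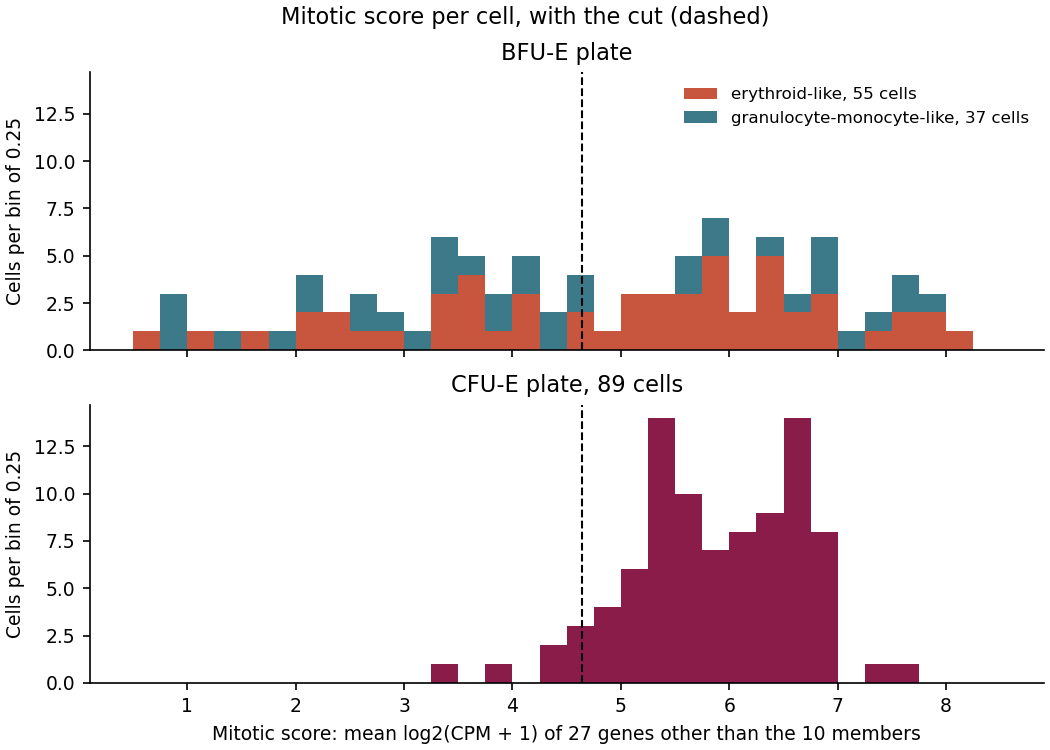
Number of cells (vertical axis, bins of 0.25) by mitotic score (horizontal axis, log2 units) on the BFU-E plate, split into its 2 clusters, and on the CFU-E plate; the dashed line is the threshold at 4.64. BFU-E-plate cells spread from 0.72 to 8.06, and 83 of 89 CFU-E cells lie at or above the threshold.

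On the BFU-E plate all 10 genes were at least 2-fold higher in mitotic-high than in mitotic-low cells, beside 4.93% of 9904 measured genes; 6.59% were at least 2-fold lower. The score was built from genes of the same phase, so that share describes how well the 10 genes follow it. In the erythroid-like cells all 10 were at least 2-fold higher, beside 8.42% of 9588 genes, and in the granulocyte-monocyte-like cells 9 were, beside 10.1% of 9953, with Bub1b there 1.78-fold higher. The median log2 ratio of the 10 was 2.27 in the erythroid-like and 1.30 in the granulocyte-monocyte-like cells; Aurkb was 5.76-fold (4.81 to 6.93) higher in the mitotic-high cells of the former and 2.38-fold (2.06 to 2.75) in those of the latter, a difference with no test. The steepest were Plk1, from 29.1 to 276 CPM (9.47-fold, 7.90 to 11.5), Aurka, from 20.7 to 181 CPM (8.76-fold), Ccnb1, from 102 to 678 CPM (6.64-fold), and Kif11, from 90.2 to 492.5 CPM (5.46-fold). The shallowest was Bub1b, which was at 174 CPM in mitotic-low and 406 in mitotic-high cells (2.34-fold, 2.15 to 2.55). Aurkb was 3.45-fold higher, and Cdk1, Bub1, Ttk and Kif20b lay between 2.48- and 2.85-fold. In CFU-E cells the mitotic-low range held only 6 cells, whose score lay close to the threshold (median 4.38 against 3.27 on the BFU-E plate). Of the 10 genes, 5 were at least 2-fold higher in the mitotic-high than in these 6 cells, beside 16% of 8228 measured genes, and Ttk was at 34.3 CPM in mitotic-high and 46.7 in mitotic-low cells (ratio 0.736, 0.498 to 1.13).

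Within the mitotic-high range Ccnb1 was at 678 CPM on the BFU-E plate and 655 in CFU-E cells (ratio 0.966, 0.925 to 1.01), against a ratio of 1.56 over all cells; with TMM factors its log2 ratio here turned to 0.56. Cdk1 (280 and 229 CPM) and Aurka (181 and 141 CPM) were lower in CFU-E cells and turned as well, to 0.32 and 0.25. Plk1 was at 276 and 332 CPM (1.21-fold higher, 1.13 to 1.29), and no member was at least 2-fold higher. The 4 genes Bub1b, Ttk, Kif11 and Kif20b were at least 2-fold lower in CFU-E cells, beside 6.5% of 9302 measured genes at least 2-fold higher and 32.1% at least 2-fold lower. Bub1b was at 406 and 179 CPM (2.27-fold lower), Kif11 at 492.5 and 226 (2.18-fold), Kif20b at 240.4 and 70.1 (3.43-fold) and Ttk at 129 and 34.3 (3.74-fold lower, from a ratio of 0.267, 0.231 to 0.308). Aurkb was at 347 and 184 CPM (1.89-fold lower) and Bub1 at 227.5 and 117 (1.94-fold), both short of 2-fold. The median log2 ratio of the 10 was -0.93 against -0.57 for all genes. With erythroid-like BFU-E cells alone it was -0.83 and 4 were at least 2-fold lower, beside 30.4% of 9077 genes; with TMM factors 2 were at least 2-fold lower and the median was -0.32. Without the 3 CFU-E cells with lymphoid markers, 5 were at least 2-fold lower, with Bub1 added at a log2 ratio of -1.02.

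The mitotic-high cells of the plates were not alike in score, so they were also set side by side in steps of 1 log2 unit above the threshold, with 12, 18 and 18 BFU-E-plate and 29, 41 and 13 CFU-E cells (median scores 5.31 and 5.35, 6.13 and 6.22, 7.48 and 6.94). Ttk was 3.32-, 3.35- and 4.03-fold lower in CFU-E cells in the 3 steps and Kif20b 3.18-, 2.38- and 4.08-fold. Bub1b was 3.13-, 1.56- and 2.78-fold lower, and Kif11 3.14-, 1.69- and 1.75-fold. Ccnb1 had ratios of 1.01, 1.499 and 1.05, and Plk1 1.18, 1.44 and 1.32. Aurkb had ratios of 0.464, 0.768 and 0.544, and Bub1 of 0.372, 0.706 and 0.620. Ttk, Kif20b, Bub1b, Kif11, Aurkb and Bub1 were thus lower in CFU-E cells in each step, and Plk1 was higher. The median of all measured genes in the mitotic-high range was itself at a log2 ratio of -0.57. No median of all genes was taken within a step. In the second step Aurkb and Bub1, at log2 ratios of -0.38 and -0.50, were above that median. The other step values of the genes that were lower lay below it. Against the erythroid-like cells alone (10, 14 and 9 cells), Ttk was 3.99-, 3.53- and 2.57-fold lower and Kif20b 3.44-, 2.59- and 4.62-fold, Plk1 had ratios of 1.08 (0.918 to 1.27), 1.33 and 1.12 (0.986 to 1.28). Ccnb1 had ratios of 0.907 (0.804 to 1.02), 1.49 (1.37 to 1.62) and 0.913 (0.844 to 0.986), so it was above the erythroid-like cells in 1 step. Against the same cells Aurkb had ratios of 0.401, 0.673 and 0.517, and Bub1 of 0.381, 0.761 and 0.829 (0.680 to 1.01). Cdk1 changed direction between steps (0.540, 1.29 and 0.959), as did Aurka (1.05, 1.10 and 0.747). Each step held fewer than 20 cells of the BFU-E plate, as did the third step of CFU-E cells. Below the threshold, where 6 CFU-E cells stood against 44 of the BFU-E plate, Ttk had a ratio of 0.951 (0.617 to 1.41) and Kif20b of 0.395 (0.239 to 0.619); against the 22 erythroid-like cells there, the ratio of Ttk was 1.63 (1.01 to 2.58).

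**Figure D3:**
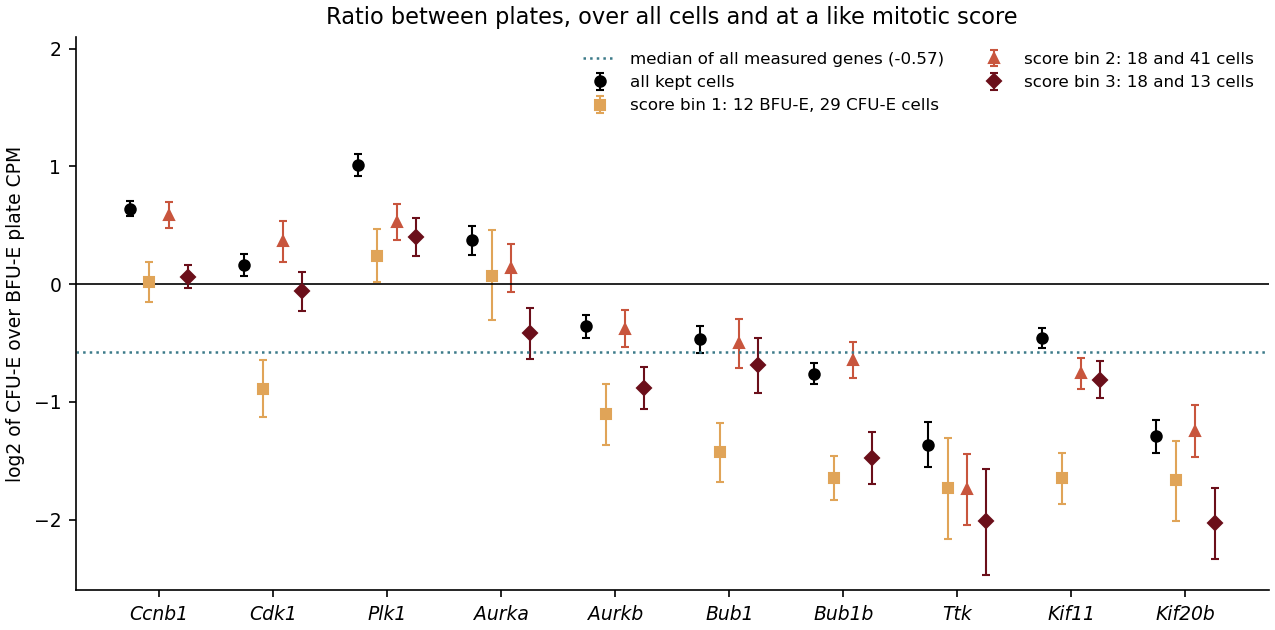
Log2 of the CFU-E over BFU-E plate CPM for each gene, over all kept cells (circles) and within 3 steps of mitotic score (squares, triangles, diamonds), with exact 95% intervals of counting error; the dotted line is the median of all 9440 measured genes. Ttk and Kif20b lie below the dotted line, which was drawn from all kept cells, in all 4 settings. The score steps have no such line of their own. Ccnb1 and Plk1 lie at or above 0.

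Across cells the 10 genes followed the score more closely on the BFU-E plate than in CFU-E cells. Spearman correlations with the score ran from 0.48 (Ttk) to 0.85 (Ccnb1) over 92 BFU-E-plate cells, from 0.46 (Ttk) to 0.84 (Ccnb1) over its 55 erythroid-like cells, and from 0.03 (Ttk) to 0.74 (Ccnb1) over 89 CFU-E cells. In CFU-E cells Ccnb1, Kif11 (0.71), Cdk1 (0.59), Aurka (0.59), Aurkb (0.55), Plk1 (0.51) and Kif20b (0.47) still followed it, while the checkpoint kinases were the 3 lowest, at 0.33 for Bub1b, 0.28 for Bub1 and 0.03 for Ttk. The same 3 were also the lowest on the BFU-E plate, at 0.60, 0.59 and 0.48. In its erythroid-like cells they were the lowest as well, at 0.62, 0.54 and 0.46. Ttk is sparse in CFU-E cells, since its median of 30 CPM is 3 counts, and the score spans a narrower range in CFU-E cells. The difference between plates was not tested. The 45 pairs of members had a median correlation of 0.51 on the BFU-E plate (0.32 for Aurka and Ttk to 0.73 for Cdk1 and Aurkb) and of 0.28 in CFU-E cells (-0.01 for Bub1b and Ttk to 0.68 for Aurka and Aurkb), where 2 pairs were below 0. Within the erythroid-like cells alone the median was 0.51 as well. Cells of a plate share a library preparation and a lane, and these correlations are descriptions.

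**Figure D4:**
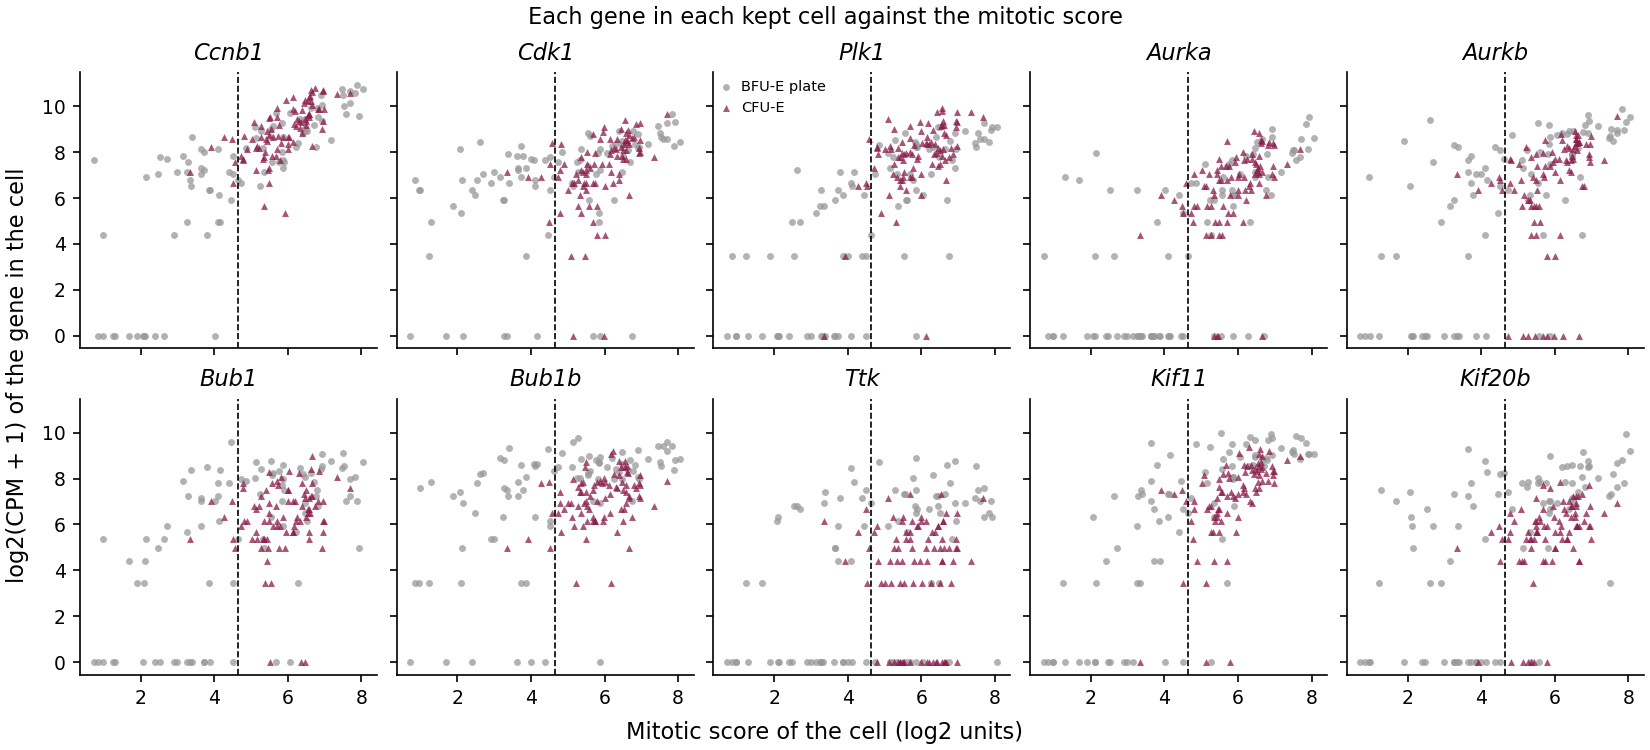
Level of each gene, as log2(CPM + 1), against the mitotic score in each kept cell of the BFU-E plate (circles) and the CFU-E plate (triangles); the dashed line is the threshold. Ccnb1 rises along the score in both plates, while Ttk and Kif20b in CFU-E cells mostly lie under the BFU-E-plate cells of like score.

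**Figure D5:**
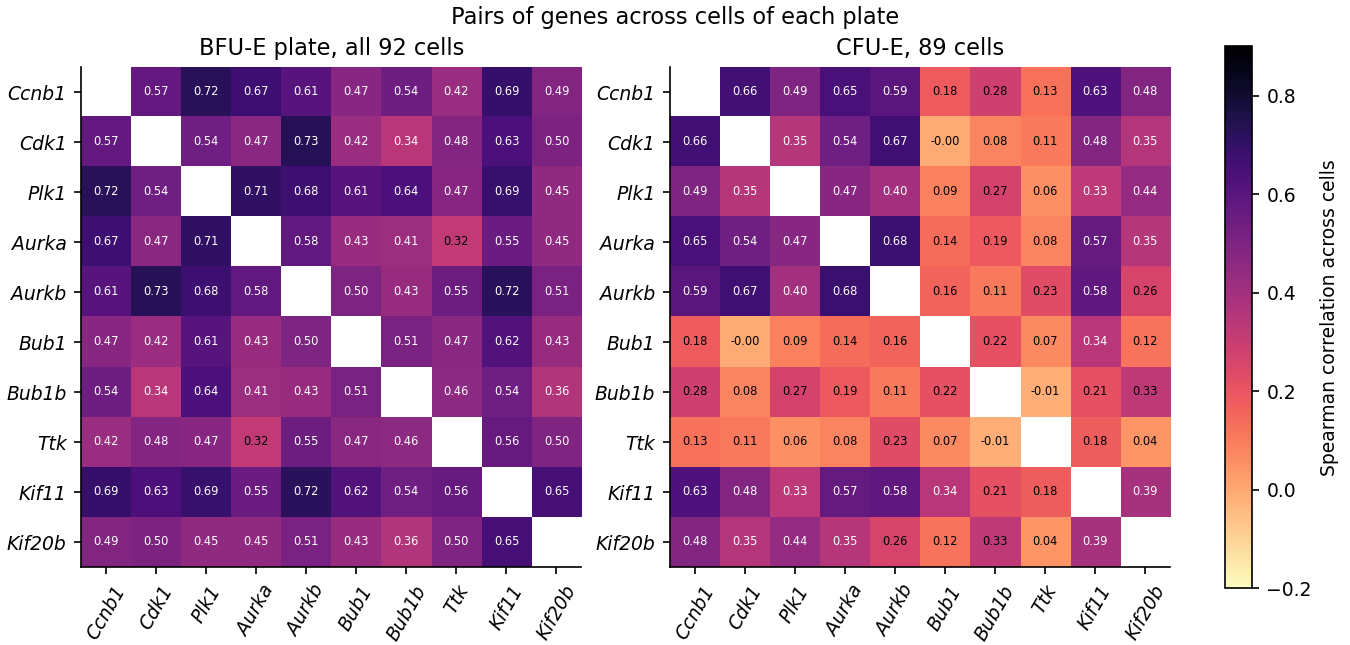
Spearman correlation across cells for each of the 45 pairs of genes, on the BFU-E plate (left, 92 cells) and in CFU-E cells (right, 89 cells); each number is 1 pair. In CFU-E cells the rows of Bub1, Bub1b and Ttk are the palest, while the pair Aurka and Aurkb (0.68) is the darkest.

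Among the genes most like the summed level of the 10, by the mean of the Spearman correlations over 92 and 89 cells among 6445 genes with at least 20 CPM, were Ube2c (0.79), Top2a (0.74), Nusap1 (0.74), Kpna2 (0.73), Prc1 (0.73), Cenpf (0.68), Bub3 (0.62), Hmmr (0.61) and Ccnf (0.60). Ube2c, Nusap1, Prc1, Cenpf and Hmmr also belong to the 27 genes of the score. Ube2c, the E2 enzyme of the anaphase-promoting complex, was at 158 CPM on the BFU-E plate and 294 in CFU-E cells.

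The other genes of the mitotic machinery were mostly within 2-fold between the plates; their counts stand beside 6.1% of all measured genes higher and 32.5% lower by at least 2-fold, and their medians beside -0.57 for all. Of 18 cyclins and CDK1 regulators, 1 was higher by at least 2-fold in CFU-E cells and 3 were lower, with a median log2 ratio of -0.16; Ccna2, the cyclin of S and G2 phase, was at 291 and 1309 CPM (4.50-fold higher), and Wee1, the kinase that restrains CDK1, at 38.7 and 15.1 CPM (2.57-fold lower). Of 28 checkpoint and anaphase-promoting complex genes, 1 was higher and 3 lower (median -0.40), with Fbxo5, an inhibitor of that complex, 2.07-fold higher and its subunit Anapc13 3.13-fold lower, from 8.80 to 2.81 CPM. Of 25 kinetochore and centromere genes, 0 were higher and 1 lower (median -0.29), between Oip5 at a ratio of 1.34 and Cenpc1, 2.14-fold lower. Of 27 spindle, motor and cytokinesis genes, 0 passed 2-fold either way (median 0.04), and they ran from Kif23 at 1.68 to Ect2 at 0.504.

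Of 14 measured passenger complex and other mitotic kinase genes, 0 were higher and 3 lower (median -0.09), with Nek2 at 1.51 and Nek7 3.77-fold lower, from 25.9 to 6.85 CPM. Of 14 condensin and cohesin genes, 0 were higher and 2 lower (median -0.36), from Ncapg2 at 1.35 to Stag1, a cohesin subunit, 3.37-fold lower. In the S phase list, 5 of 28 genes passed 2-fold as higher and 1 as lower (median 0.13), with Ccne1, the cyclin of S phase entry, at 40.8 and 589 CPM (14.5-fold higher) and Gins1 2.26-fold lower. With TMM factors the counts higher and lower became 3 and 0, 4 and 0, 0 and 0, 4 and 0, 2 and 1, 1 and 1, and 11 and 0 for the 7 lists in this order, beside 14.1% and 18.7% of all genes, and the medians became 0.42, 0.18, 0.28, 0.61, 0.48, 0.21 and 0.70, with the spindle and S phase medians above 0 in both scalings. Against the erythroid-like cells the medians were -0.27, -0.51, -0.37, 0.02, -0.11, -0.46 and 0.11. Within the mitotic-high range the medians of the spindle, kinetochore and checkpoint lists were -0.52, -0.72 and -0.63, beside -0.57 for all genes in that range. That of the S phase list was 0.48. With TMM factors these became 0.09, -0.11, -0.02 and 1.09. The spindle, kinetochore and checkpoint lists share genes with the score that sets the range, so their medians there are not independent of it. The S phase list shares none.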

How the data were processed

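The deposited values are raw counts per gene; the submitters' processing notes name STAR 2.4, featureCounts and the build GRCm38; libraries were SmartSeq2, read along whole transcripts, without strand or molecular identifiers, per the labels' protocols. Of 192 columns, 191 matched a cell by name; 1 further column was left out. The 95 index pairs used on both plates were told apart by lane, and 0 kept columns were identical. Wells held sorted single cells, and doublets were not called.

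Kept cells were thinned (seed 1), summed and given as CPM with exact Poisson intervals; ratios carry exact conditional binomial and shares exact Clopper-Pearson 95% intervals. Log2 ratios used a pseudocount of 1 CPM. Clustering used Ward's method on 10 principal components of 1000 variable genes (Python 3.11.15, numpy 2.4.6, scipy 1.17.1, scikit-learn 1.9.0, matplotlib 3.10.9). TMM factors came from edgeR 4.0.16 and median-of-ratios factors from DESeq2 1.42.0 (R 4.3.3), on the 2 sums. Positions and exon lengths are from GENCODE M21. The thinning, ratio, ratio interval and threshold steps were tested on simulated data, and the other steps were not. Simulated cells of a plate differed only in depth and counting error, and the simulated scores formed separate peaks. Cell-to-cell variation was therefore not covered.

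The members, the 27 score genes, the 7 pathway lists and the 9 marker lists were chosen with earlier results of these data known. Named besides the members were the measured genes with the highest and lowest ratio in each pathway list, the 10 genes most like the members' sum and the most abundant marker of each other cell type. A gene that this rule names is not reported here.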

Additional observations from a re-analysis of the deposited data

How the results depend on the processing

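No paired analysis was possible because the numbers shared by the plates' labels name wells, and no test was made. Members at least 2-fold lower in CFU-E cells numbered 2, and 0 with TMM factors, with median-of-ratios factors and against erythroid-like cells with TMM factors. Members at least 2-fold higher numbered 1, and 2 under those same 3 settings, but 0 with unthinned counts, with erythroid-like cells alone and without the 2 of them that were high in granulocyte-monocyte markers. The members' median log2 ratio of -0.41 became -0.60 with unthinned counts and turned to 0.16 with TMM, 0.22 with median-of-ratios and 0.27 against erythroid-like cells with TMM factors. The directions of single genes that turned were those of Cdk1 with unthinned counts (-0.069), of Aurkb, Bub1 and Kif11 with TMM (0.21, 0.10 and 0.11) and median-of-ratios factors (0.27, 0.16 and 0.17), and of Aurkb and Bub1 against erythroid-like cells with TMM factors (0.18 and 0.36). Within the mitotic-high range, TMM factors left 2 of 4 genes at least 2-fold lower, moved the median to -0.32 and turned Ccnb1 (0.56), Cdk1 (0.32) and Aurka (0.25), and a threshold 0.5 lower turned Ccnb1 (0.049). Of all measured genes, 32.5% and 6.1% at least 2-fold lower and higher became 18.7% and 14.1% with TMM and 17.8% and 15.2% with median-of-ratios factors.

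The CFU-E share of mitotic-high cells, 93.3%, was 97.8% and 83.1% with the threshold 0.5 lower and higher, and 82.02% with a score of summed CPM. It was 51.7% with a threshold set in each plate, beside 52.2% for the BFU-E plate, shares that were not taken at a like score. At thresholds 1 and 2 higher it was 60.7% and 14.6%, beside 39.1% and 19.6% on the BFU-E plate and 41.8% and 16.4% in its erythroid-like cells. Of 160 values of single members under the alternatives, 98 stayed within the counting interval of the reported value, 49 moved beyond it in the same direction and 13 turned. Scaling moved most of them by construction, and the cause of the other moves was not tested. The alternatives with thresholds 1 and 2 higher, unthinned scores, seed 2 for the ratios, lymphoid-marker cells left out, scaling of all genes and subsets of the erythroid-like cells were chosen after seeing the data. The intervals over the 92 and 89 summed cells hold counting error only, and differences between animals or plates have no estimate.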
